A study of Mus musculus with 5 samples.

Results

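Mitochondrial ribosomal protein genes were taken as all gene symbols that begin with Mrpl or Mrps followed by a number, which gave 77 of the 24347 symbols in the deposited tables, 48 named for the large (Mrpl) and 29 for the small (Mrps) ribosomal subunit. The libraries came from MMTV-Wnt-1 transgenic mice, in which the MMTV long terminal repeat drives a Wnt-1 transgene in the mammary epithelium, on a mixed FVB, SJL and C57BL/6 background. From precancerous mammary lesions, 2 pools of keratin 6a positive (Krt6a+) cells, which the labels call precancerous stem cells and number 2 and 3, and 3 pools of cells positive for whey acidic protein (WAP+), numbered 1 to 3, were sorted with an antibody to TVA. Both populations carried the transgene, so neither is a transgene-free control, and the labels give no promoter for TVA and no age at collection. The pools were small, and no label says that the pools came from different mice, so p-values measure only the spread between these libraries, which may be technical.

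The mitochondrial ribosome translates the few proteins encoded by mitochondrial DNA, all of them subunits of the respiratory chain and ATP synthase. Its proteins are encoded in the nucleus, made in the cytosol and imported, while its rRNA is transcribed in the mitochondrion. Many of its proteins descend from those of the bacterial ribosome and others exist only in mitochondria. Mrps18a and Mrps30 are named for the small subunit but sit in the large one, and Mrps36 is now assigned to the 2-oxoglutarate dehydrogenase complex.

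The pools were checked against the genes that name them. Krt6a stood at 1380 and 1133 FPKM in the Krt6a+ libraries, against 168, 50.01 and 120 FPKM in the WAP+ libraries. FPKM is the fragment count of a transcript divided by its length and by the mapped fragments of the library. Wap was listed at 0 in both Krt6a+ libraries, against 50.1, 126 and 13.9 FPKM in the WAP+ libraries. It was tested only because of its WAP+ values, so its p is not an independent check of the pools. Both passed the test used throughout (limma adjusted p = 0.0383 for Krt6a and 0.0448 for Wap), but the calls were lost in 7 and 9 of the 17 alternatives, where the adjusted p reached 0.351 and 0.374. Read as counting error, the width of the deposited intervals gave totals of about 6790000 and 5280000 fragments for Krt6a+, against 4750000, 7370000 and 6320000 for WAP+. For a single Mrp gene the median was 143 and 110.0 implied fragments for Krt6a+, against 222, 238 and 168 for WAP+. Read this way counting error was small for most of them, but these values are not read counts. Spread from small pools or from amplification is not part of them. An exact 0 needs care in these files. Eno1, Rpl10 and Rpl11, which every cell uses, were listed at 0 in all 5 libraries and Gapdh in 3, so a gene at 0 is described only as listed at 0.

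The Mrp genes as a group stood lower in the Krt6a+ libraries. Their summed FPKM was 0.798% and 0.611% of the FPKM total in the Krt6a+ libraries, against 1.11%, 1.21% and 1.06% in the WAP+ libraries, and the groups did not overlap. Mrpl genes held 0.565% and 0.408% of the total in Krt6a+, against 0.746%, 0.840% and 0.752% in WAP+. Mrps genes held 0.233% and 0.203% in Krt6a+, against 0.361%, 0.372% and 0.311% in WAP+. In both name classes each Krt6a+ share was below each WAP+ share. These shares are not adjusted for transcript length. The 4 genes of highest mean level, Mrpl52, Mrpl33, Mrps21 and Mrpl20, have short transcripts of 407 to 665 bases. They held 29.2% and 25.1% of the Mrp sum in Krt6a+, against 28.9%, 37.5% and 34.5% in WAP+. With the trend on length removed, their log2 differences (Krt6a+ minus WAP+) were -0.10, 0.34, 0.66 and 0.25. In bulk pools of this kind, fewer cells expressing a gene and less RNA per cell cannot be told apart.

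**Figure D1:**
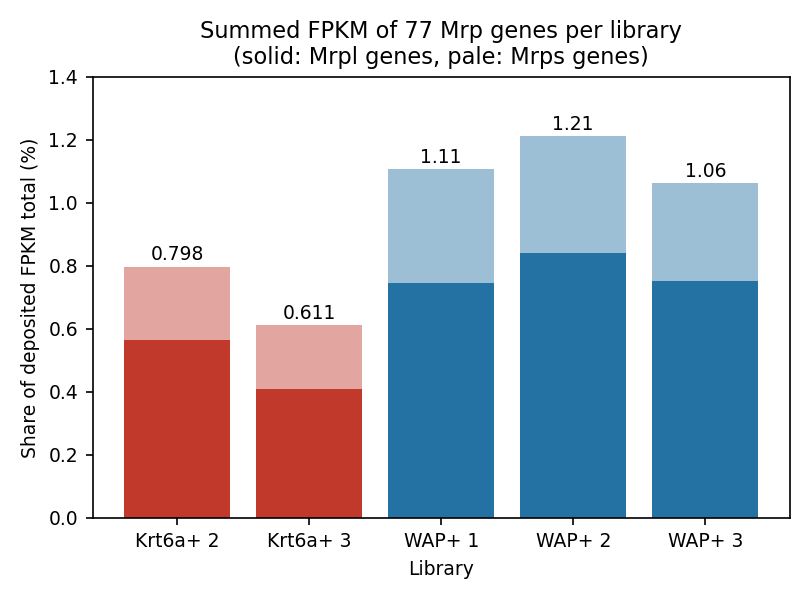
Share of the deposited FPKM total (%) held by the 77 Mrp genes in each library, Krt6a+ in red and WAP+ in blue, with Mrpl genes solid and Mrps genes pale. The 2 Krt6a+ bars, at 0.798% and 0.611%, are shorter than all 3 WAP+ bars, at 1.11%, 1.21% and 1.06%. The shares are not adjusted for transcript length.

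Of the 77 genes, 76 reached FPKM 1 in at least 2 libraries and were tested, and 69 reached it in all 5. After scaling, the median tested Mrp gene stood at 20.6 and 16.1 scaled FPKM in the Krt6a+ libraries, against 40.4, 36.6 and 30.7 in the WAP+ libraries. The difference on the log2(scaled FPKM + 1) scale, Krt6a+ minus WAP+, had a median of -0.999 over the 76 genes and ran from -3.73 to 0.62. It was negative for 67 genes and positive for 9, whereas 50.2% of all 9682 tested genes were negative and their median was -0.01. Over the 69 Mrp genes that reached FPKM 1 everywhere, and so were not kept through one population alone, the median was -0.95 and 61 differences were negative.

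No single Mrp gene passed the test. By limma with Benjamini-Hochberg adjustment over all tested genes, 0 of 76 were lower and 0 were higher at an adjusted p of 0.05, where 0.434% of all tested genes were lower and 0.258% were higher. The smallest adjusted p among the Mrp genes was 0.0665. At an unadjusted p under 0.05, 25 Mrp genes (32.9%) were lower, against 9.45% of all tested genes, and 0 were higher, against 7.66%. With the trend on transcript length removed 5 Mrp genes (6.58%) were lower at that level, against 7.47% of all tested genes and 8.64% of genes of like length, so that count no longer stood above the background. In scaled FPKM, both Krt6a+ libraries lay below all 3 WAP+ libraries for 33 Mrp genes (43.4%), against 17.4% of all tested genes. The reverse held for 0 Mrp genes, against 17.4% of all tested genes. The lower values thus describe the median and most of the Mrp genes, of which 9 were positive and none passed on its own.

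**Figure D2:**
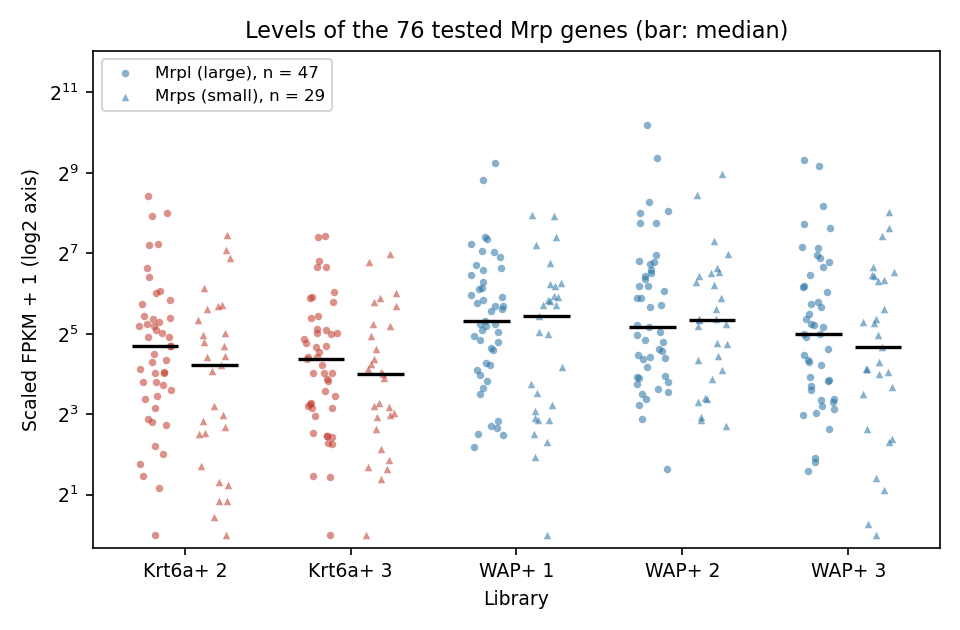
Scaled FPKM + 1 on a log2 axis for each of the 76 tested Mrp genes in each library, Krt6a+ libraries on the left; circles are Mrpl and triangles Mrps genes, and bars are medians. The points of each library span several doublings, and the medians of both name classes are lower in both Krt6a+ libraries than in any WAP+ library.

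Transcript length moved with this result. The Mrp transcripts were short, with a median of 1052 bases and a range of 407 to 6712, and over all other genes the difference followed length. Other genes of at most 700 bases had a median log2 difference of -1.12 (348 genes), those of 700 to 1000 bases -0.65 (549 genes) and those over 3000 bases 0.22 (3970 genes). The Mrp genes in those classes had medians of -0.995 (14 genes), -1.22 (18 genes) and -0.21 (5 genes). The shortest Mrp genes therefore stood no lower than other genes of their length, and the remaining classes stood lower than theirs. The classes between held Mrp medians of -0.63 for 1000 to 1500 bases (22 genes), -1.10 for 1500 to 2000 bases (11 genes) and -0.40 for 2000 to 3000 bases (6 genes). Other genes of those classes had medians of -0.41, -0.15 and 0.02.

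Among the 3995 other tested genes between the 10th and 90th percentile of Mrp transcript length, 633 to 2372 bases, the median difference was -0.27 and 59.3% were negative. Of these genes of like length, 14.2% were lower at an unadjusted p under 0.05, and for 22.4% both Krt6a+ libraries lay below all WAP+ libraries. Their median was -0.23 when the level was matched as well (2270 genes). This window holds longer transcripts than the Mrp genes, with a median of 1589 bases. In the narrower window from the 25th to the 75th percentile (1666 genes) the median was -0.44, with 17.6% lower at an unadjusted p under 0.05 and 26.5% separate. Set against other genes within 10% of its own length, the median Mrp gene was lower by a log2 difference of -0.43, with 56 genes below and 20 above the median of their length. With the trend on length removed within each library, the Mrp median became -0.31, with 54 genes negative and 22 positive, and genes of like length had a median of -0.01. The part of transcript length in what remains was not tested.

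**Figure D3:**
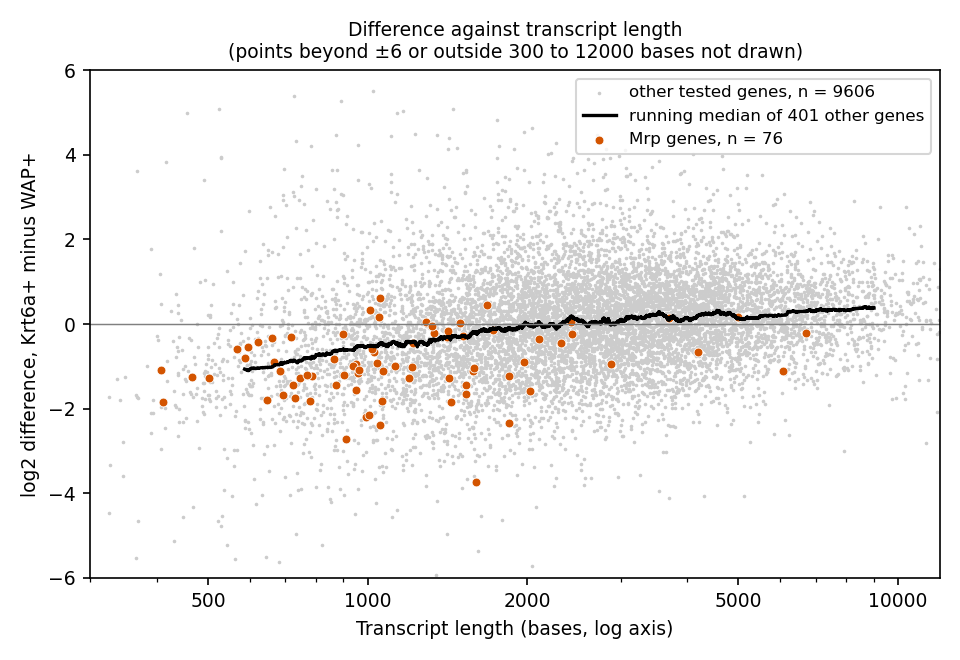
log2 difference (Krt6a+ minus WAP+) against transcript length in bases on a log axis, for 76 Mrp genes in orange and 9606 other tested genes in grey, with the running median of the other genes in black. The black line climbs from below -1 at the shortest transcripts to above 0 at the longest, and of the 51 Mrp genes of 700 to 2000 bases, 38 lie below the median of other genes within 10% of their length.

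Of the Mrpl genes, 39 of 47 tested were negative, with a median of -0.94, and 23 (48.9%) had both Krt6a+ libraries below all WAP+ libraries, against 17.4% of all tested genes and 22.4% of those of like length. Mrpl9, the counterpart of bacterial L9 (chr3:94443336-94448708, mm10), had the largest difference. It was listed at 0 and 4.34 FPKM in the Krt6a+ libraries, against 33.9, 18.7 and 32.1 FPKM in the WAP+ libraries. By its Krt6a+ values alone it would not have been tested. Its log2 difference was -3.73 ± 0.75 (SE; limma adjusted p = 0.0665), and with the listed 0 treated as missing, which leaves a single Krt6a+ library assumed to vary like the others, it was -2.60. The transcript shares exon bases with Oaz3, and the library kit does not mark strand, so reads of the overlap cannot be assigned. Other genes of its length had a median of -0.21, and no tested Mrp gene stood further from the median of its length.

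Mrpl30, the counterpart of bacterial L30 (chr1:37890553-37898333), stood at 35.9 and 48.0 FPKM in the Krt6a+ libraries, against 150, 100.4 and 125 FPKM in the WAP+ libraries. The groups were separate, at 39.6 ± 4.2 scaled FPKM in Krt6a+ and 128 ± 16 in WAP+ (SD, n = 2 and 3), with a log2 difference of -1.67 ± 0.36 (limma adjusted p = 0.0785). Other genes of its length had a median of -0.83, and with the length trend removed its difference was -0.57 (limma adjusted p = 0.6496). Mrpl52, a subunit found only in mitochondria (chr14:54426909-54429750), had the highest mean level of all Mrp genes. It stood at 249 and 190 FPKM in the Krt6a+ libraries, against 687, 1063 and 506 FPKM in the WAP+ libraries, a log2 difference of -1.84 ± 0.43 (limma adjusted p = 0.0936). Its transcript is only 412 bases long, other genes of that length had a median of -1.18, and with the length trend removed its difference was -0.10.

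Mrpl21, the counterpart of bacterial L21, stood at 15.3 and 7.66 FPKM in the Krt6a+ libraries, against 42.3, 65.3 and 43.6 FPKM in the WAP+ libraries. Mrpl27, whose bacterial counterpart lies near the peptidyl transferase centre where peptide bonds form, stood at 12.7 and 23.1 FPKM in Krt6a+, against 60.5, 73.8 and 38.2 FPKM in WAP+. Mrpl34, the counterpart of the short bacterial protein L34, stood at 34.7 and 35.7 FPKM in Krt6a+, against 87.7, 194 and 87.1 FPKM in WAP+. In all of these the Krt6a+ libraries were below every WAP+ library, by log2 differences of -2.20 ± 0.52, -1.75 ± 0.46 and -1.79 ± 0.50, and none passed the adjusted test. Other genes of their lengths had medians of -0.56, -0.83 and -1.02, and with the length trend removed the 3 differences were -1.55, -0.72 and -0.60.

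The abundant large-subunit genes Mrpl33 and Mrpl20 had differences close to those of other genes of their length. Mrpl33 stood at 334 and 193 FPKM in the Krt6a+ libraries, against 519, 598 and 554 FPKM in the WAP+ libraries, and its difference of -1.25 ± 0.41 was close to the median of -1.16 for genes of its length. Mrpl20, the counterpart of an rRNA-binding bacterial protein, stood at 144 and 114 FPKM in Krt6a+, against 186, 231 and 250.1 FPKM in WAP+. Its difference of -0.90 ± 0.40 was likewise close to the -0.89 of genes of its length. Both populations were separated in each of these genes, while both differences became positive once the length trend was removed, at 0.34 and 0.25.

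The stalk of the large subunit recruits translation factors, and the signs of its members differed. Mrpl12, the counterpart of bacterial stalk protein L7/L12, stood at 24.5 and 73.3 FPKM in the Krt6a+ libraries, against 148, 98.7 and 107 FPKM in the WAP+ libraries. Mrpl10, which anchors the stalk to the ribosome, stood at 40.03 and 11.3 FPKM in Krt6a+, against 36.4, 9.44 and 8.00 FPKM in WAP+. The groups were separate for Mrpl12, with a difference of -1.55 ± 0.47, and overlapped for Mrpl10, with a difference of 0.46 ± 0.76. The difference between these differences was not tested.

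Of the Mrps genes, 28 of 29 tested were negative, with a median of -1.09, and 10 (34.5%) had both Krt6a+ libraries below all WAP+ libraries, against 17.4% of all tested genes and 22.4% of those of like length. Without Mrps18a, Mrps30 and Mrps36, which are not in the small subunit, 25 of 26 were negative, with a median of -1.10 and 10 separate genes. Mrps28 stood at 47.4 and 65.5 FPKM in the Krt6a+ libraries, against 167, 114 and 149 FPKM in the WAP+ libraries, a difference of -1.45 ± 0.36. Mrps21, the counterpart of bacterial S21, stood at 172 and 142 FPKM in Krt6a+, against 279, 455 and 228 FPKM in WAP+. Mrps12, the counterpart of the decoding-site protein S12, stood at 30.7 and 26.6 FPKM in Krt6a+, against 58.6, 43.4 and 76.3 FPKM in WAP+. All these genes had separate groups. With the length trend removed the difference of Mrps28 was -0.41, that of Mrps21 was 0.66 against -1.09 ± 0.43 before, and that of Mrps12 was -0.0012 against -1.11 ± 0.44 before.

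Mammals carry the genes Mrps18a, Mrps18b and Mrps18c, all related to bacterial S18, of which Mrps18a is in the large subunit. Mrps18b stood at 2.22 and 16.8 FPKM in the Krt6a+ libraries, against 36.5, 36.7 and 33.6 FPKM in the WAP+ libraries. Mrps18c stood at 133 and 71.5 FPKM in Krt6a+, against 191, 316 and 173 FPKM in WAP+. Mrps18a stood at 26.3 and 61.1 FPKM in Krt6a+, against 122, 89.4 and 26.6 FPKM in WAP+. The groups were separate for Mrps18b and Mrps18c, with differences of -2.39 ± 0.69 and -1.28 ± 0.48, and overlapped for Mrps18a, with a difference of -0.83 ± 0.63. For Mrps18b, Mrps18c and Mrps18a, other genes of their lengths had medians of -0.46, -1.21 and -0.65. With the length trend removed the differences were -1.82, 0.22 and -0.014.

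Of the genes with a 0, Mrps27, a pentatricopeptide-repeat protein of the small subunit, was listed at 0 in both Krt6a+ libraries, against 14.1, 8.06 and 0 FPKM in the WAP+ libraries. It was tested only because of its WAP+ values. Mrpl23, the counterpart of bacterial L23 near the exit of the peptide tunnel, was listed at 0 everywhere except 3.40 FPKM in WAP+ library 1 and was not tested. In all, 5 Mrp genes had a 0 in some library, and their differences depend on how the 0 is read.

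Among the 9 positive genes, no pair of groups was separate. Mrpl40, a mitochondria-specific subunit, had the largest positive difference. It stood at 24.3 and 27.4 FPKM in the Krt6a+ libraries, against 44.0, 7.66 and 9.78 FPKM in the WAP+ libraries, a difference of 0.62 ± 0.67 (limma adjusted p = 0.685). Mrpl2, whose bacterial counterpart helps to build the peptidyl transferase centre, stood at 61.9 and 9.60 FPKM in Krt6a+, against 26.7, 27.6 and 7.79 FPKM in WAP+. The remaining named genes near or above 0 were Mrpl19, Mrpl35, Mrps33, Mrpl41 and Mrpl4, with differences of 0.17, 0.13, 0.17, 0.05 and 0.04, all smaller than their standard errors.

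**Figure D4:**
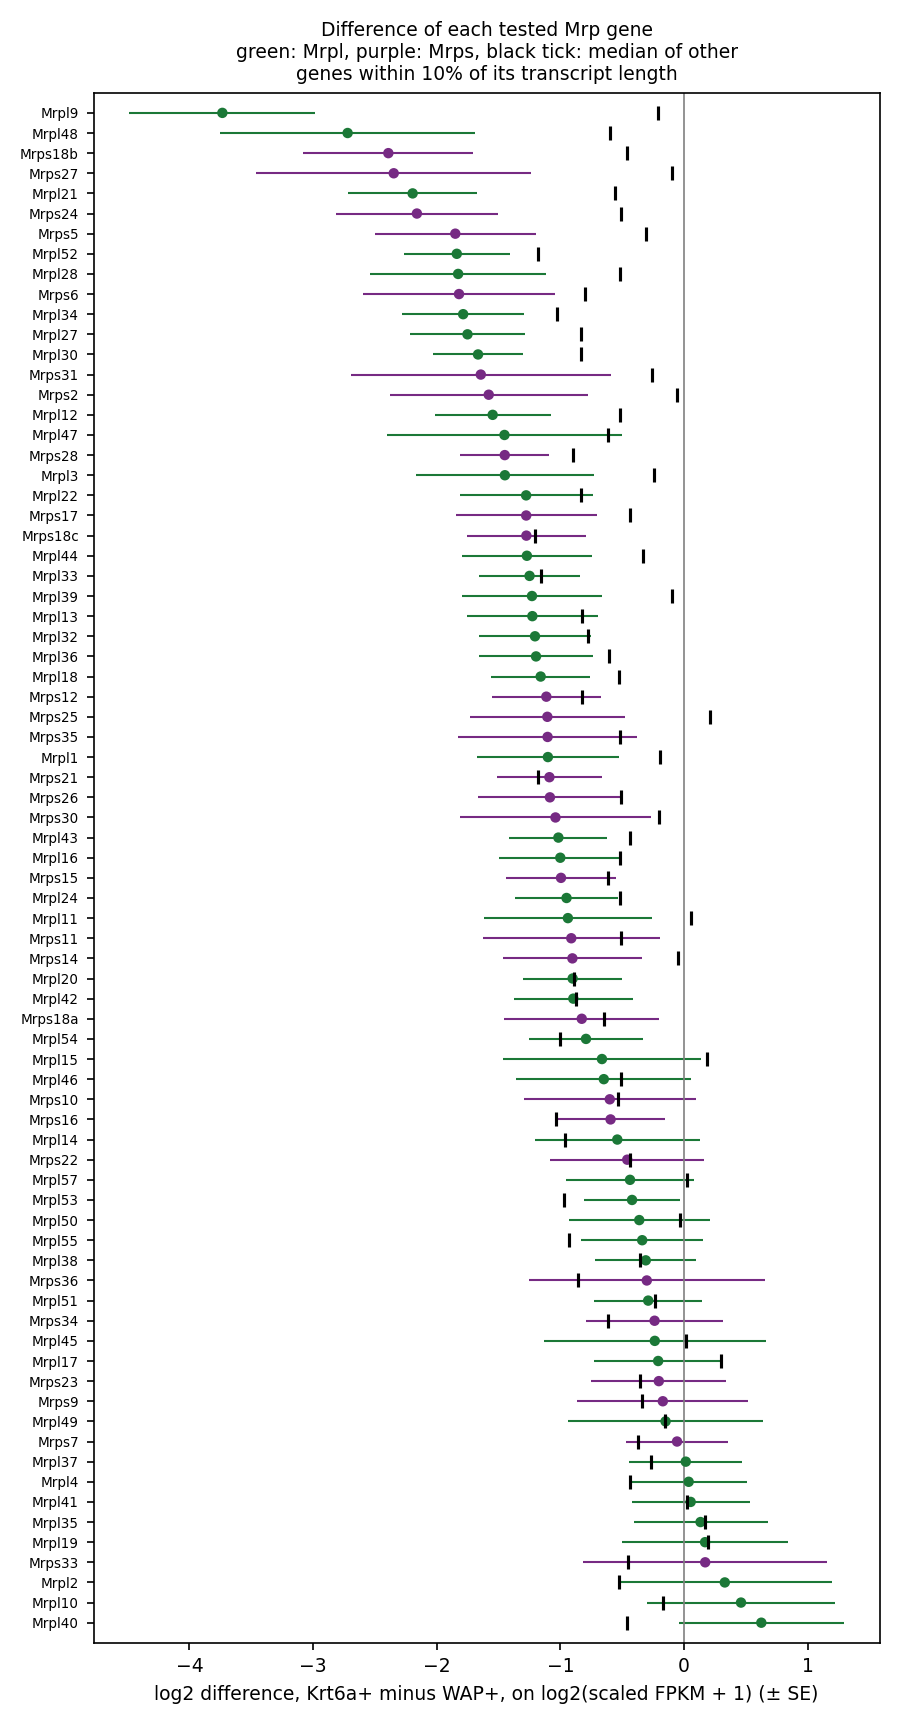
log2 difference (Krt6a+ minus WAP+) with its standard error for each of the 76 tested Mrp genes, Mrpl in green and Mrps in purple, beside a black tick for the median of other genes within 10% of the same transcript length. Of the points, 67 lie left of 0, and 56 lie left of their own tick.

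Subunits with a bacterial counterpart (45 tested) had a median difference of -1.11, against -0.65 for mitochondria-specific subunits (27 tested); the other 4 genes were placed in neither class. With the length trend removed the medians were -0.44 and -0.06. Of the first class 25 genes (55.6%) and of the second 8 (29.6%) had separate groups with Krt6a+ lower, against 17.4% of all tested genes, 22.4% of those of like length and 26.5% in the narrower length window. Mrps28 was placed in the second class although newer nomenclature gives it a bacterial counterpart; moved to the first, it makes the medians -1.14 and -0.55 and the counts 26 and 7. The difference between the classes was not tested. Across all 76 genes the difference had a Spearman correlation of 0.27 with transcript length and -0.22 with mean level, while level and length had one of -0.75, all from the same 5 libraries. The order of the Mrp genes by level was alike in all libraries. Spearman correlations over 69 genes were 0.753 between the Krt6a+ libraries, 0.865 to 0.910 between WAP+ libraries and 0.737 to 0.865 across the populations. Over 2362 other genes of like length they were 0.753, 0.846 to 0.856 and 0.693 to 0.759. A like order was thus not particular to the Mrp genes.

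The sequences before the transcript start were examined because nuclear genes for mitochondrial proteins are known to be bound by NRF1, GABP (an ETS factor) and YY1. The 140 bases before the RefSeq start (GRCm38.p6) are printed for the genes with the largest negative statistics, Mrpl9 (chr3:94443196-94443335, plus strand), Mrpl30 (chr1:37890337-37890476, plus strand) and Mrpl52 (chr14:54426769-54426908, plus strand), and for those with the largest positive ones, Mrpl40 (chr16:18876638-18876777, minus strand) and Mrpl10 (chr11:97041442-97041581, plus strand). Capitals mark letters that match one of the motifs named below, on either strand.
Mrpl9: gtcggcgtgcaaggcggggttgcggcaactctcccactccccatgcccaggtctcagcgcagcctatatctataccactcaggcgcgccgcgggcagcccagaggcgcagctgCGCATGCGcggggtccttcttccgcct
Mrpl30: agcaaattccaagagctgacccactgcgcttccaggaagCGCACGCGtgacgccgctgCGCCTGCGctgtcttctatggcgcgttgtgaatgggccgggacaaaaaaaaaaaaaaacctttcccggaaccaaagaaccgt
Mrpl52: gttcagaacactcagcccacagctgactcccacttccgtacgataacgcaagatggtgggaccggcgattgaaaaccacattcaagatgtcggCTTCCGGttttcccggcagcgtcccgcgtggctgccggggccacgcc
Mrpl40: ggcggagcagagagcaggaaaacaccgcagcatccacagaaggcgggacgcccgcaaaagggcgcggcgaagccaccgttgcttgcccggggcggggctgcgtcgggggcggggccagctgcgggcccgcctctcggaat
Mrpl10: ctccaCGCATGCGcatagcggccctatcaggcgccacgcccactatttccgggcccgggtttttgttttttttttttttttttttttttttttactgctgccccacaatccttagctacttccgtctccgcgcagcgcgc
The motifs searched were CGCANGCG for NRF1, CCGGAAG for ETS factors and AAGATGGC for YY1, on both strands, in windows of 250 bases before to 50 bases after the start. RefSeq windows were matched for 68 of the 77 Mrp genes. The NRF1 letters were found in 20 of the 68 (29.4%), against 20.9% of the other tested genes and 8.21% of all windows. The ETS letters were found in 25 (36.8%), against 21.6% and 8.86%. The YY1 letters were found in 12 (17.6%), against 5.88% and 2.75%. Of the sequences shown, those of Mrpl9, Mrpl30 and Mrpl10 hold NRF1 letters and that of Mrpl52 holds ETS letters (with a further match after its start, not shown), so genes at both ends of the range hold them. The 43 Mrp genes with any of the motifs had a median difference of -1.09 and the 24 tested genes without any -0.97, which is a description of letters in a window and not of binding.

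The partners of the mitochondrial ribosome were read from lists of its pathway. Subunits with other names had a median difference of -1.58 (7 of 7 in the files tested). This list also holds Oxa1l, a membrane insertase that is not itself a ribosomal subunit. By limma, 0 passed the adjusted test in either direction, and at an unadjusted p under 0.05 there were 4 lower (57.1%, against 9.45% of all tested genes) and 0 higher. Differences were negative for 5 genes and positive for 2, Dap3 (0.66) and Ptcd3 (0.18), both named after their values were seen. Oxa1l, likewise named afterwards, was among the negative genes (-0.73) with overlapping groups. It stood at 12.3 and 0 FPKM in Krt6a+, against 3.41, 11.1 and 2.88 FPKM in WAP+. Ict1, the large-subunit peptidyl-tRNA hydrolase that rescues stalled ribosomes, stood at 28.2 and 22.4 FPKM in the Krt6a+ libraries, against 72.4, 138 and 114 FPKM in the WAP+ libraries. Chchd1, of the small subunit, stood at 78.3 and 129 FPKM in Krt6a+, against 192, 394 and 328 FPKM in WAP+. Aurkaip1, also of the small subunit, stood at 15.1 and 26.2 FPKM in Krt6a+, against 63.7, 51.1 and 56.5 FPKM in WAP+. These 3 had separate groups with Krt6a+ lower. The differences of Ict1, Chchd1 and Aurkaip1 were -2.13, -1.65 and -1.58, and with the length trend removed -1.11, -0.36 and -1.15.

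Translation factors had a median of -0.59 (13 of 14 tested), with 0 past the adjusted limma test and 0 at an unadjusted p under 0.05. Gfm1, the elongation factor that moves the ribosome along the mRNA, stood at 0 and 3.36 FPKM in the Krt6a+ libraries, against 8.05, 2.74 and 10.5 FPKM in the WAP+ libraries. Mtfmt, which formylates the initiator tRNA, stood at 1.79 and 0.314 FPKM in Krt6a+, against 3.86, 3.27 and 4.94 FPKM in WAP+. Mtrf1l, a release factor, stood at 0.734 and 0.268 FPKM in Krt6a+, against 2.12, 1.95 and 3.83 FPKM in WAP+. These were low levels, where the added 1 compresses differences and a listed 0, as for Gfm1, leaves their size uncertain. Mtrf1l was tested only because of its WAP+ values, and Gfm1 and Mtfmt would not have been tested by their Krt6a+ values alone.

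Assembly and rRNA modification factors held genes at both ends, with a median of 0.15 (23 of 27 tested), with 0 past the adjusted limma test and, unadjusted, 3 lower (13.04%) and 2 higher, close to the 9.45% and 7.66% of all tested genes. Mterf3, which takes part in assembly of the large subunit, stood at 6.56 and 0 FPKM in the Krt6a+ libraries, against 21.7, 25.9 and 20.4 FPKM in the WAP+ libraries. Malsu1, a large-subunit assembly factor, stood at 9.10 and 19.1 FPKM in Krt6a+, against 57.1, 50.7 and 26.3 FPKM in WAP+. Mtg2, a GTPase of the large subunit, had the opposite sign, with 8.998 and 19.6 FPKM in Krt6a+, against 0.546, 0.296 and 2.68 FPKM in WAP+. Its difference was 2.78 ± 0.76 (limma adjusted p = 0.126). Mtg2 would not have been tested by its WAP+ values alone, nor Mterf3 by its Krt6a+ values alone.

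Mitochondrial aminoacyl-tRNA synthetases, which charge the tRNAs, had a median of 0.01 (18 of 22 tested), with 0 past the adjusted limma test and, unadjusted, 3 lower (16.7%, against 9.45% of all tested genes) and 0 higher. Sars2, for serine, stood at 0.0935 and 0 FPKM in the Krt6a+ libraries, against 5.75, 13.03 and 1.79 FPKM in the WAP+ libraries. Yars2, for tyrosine, stood at 0 and 0.883 FPKM in Krt6a+, against 12.4, 6.66 and 2.83 FPKM in WAP+. Gars, for glycine in both cytosol and mitochondria, stood at 24.4 and 74.1 FPKM in Krt6a+, against 146, 61.6 and 90.5 FPKM in WAP+. Sars2 and Yars2 were tested only because of their WAP+ values. For each of these 3 genes the Krt6a+ mean was below the WAP+ mean, while the list as a whole was centred near 0.

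Genes of mitochondrial DNA transcription and RNA processing had a median of -0.18 (24 of 26 tested), with 0 past the adjusted limma test and 0 at an unadjusted p under 0.05. Tfam, which packages mitochondrial DNA and starts its transcription, stood at 0.0366 and 3.73 FPKM in Krt6a+, against 5.68, 4.27 and 4.60 FPKM in WAP+. By its Krt6a+ values alone Tfam would not have been tested. Slirp, which stabilizes mitochondrial mRNA, stood at 361 and 244 FPKM in Krt6a+, against 657, 753 and 250.1 FPKM in WAP+. Trmt10c, a subunit of mitochondrial RNase P, stood at 18.7 and 16.4 FPKM in Krt6a+, against 7.53, 8.48 and 9.23 FPKM in WAP+. Tfam was lower in both Krt6a+ libraries than in any WAP+ library, Trmt10c was higher in both, and Slirp was lower in one Krt6a+ library than in every WAP+ library and between them in the other.

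Regulators of mitochondrial biogenesis had a median of 0.33 (8 of 11 tested), with 0 past the adjusted limma test and, unadjusted, 0 lower and 2 higher, against 9.45% and 7.66% of all tested genes. Gabpa, the DNA-binding subunit of GABP, stood at 4.93 and 8.28 FPKM in the Krt6a+ libraries and was listed at 0 in all 3 WAP+ libraries. Gabpb2, a partner subunit, stood at 2.66 and 3.13 FPKM in Krt6a+ and was listed at 0 in all 3 WAP+ libraries. Both were tested only because of their Krt6a+ values, and the 2 higher genes at an unadjusted p are these. Gabpb1, the other partner, stood at 7.24 and 17.5 FPKM in Krt6a+, against 14.3, 0.250 and 4.85 FPKM in WAP+, with overlapping groups. The Krt6a+ mean of each GABP gene was above its WAP+ mean, whereas most Mrp genes had the lower mean in Krt6a+.

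Protein import genes, which bring the Mrp proteins into the mitochondrion, had a median of -0.78 (27 of 28 tested), with 0 past the adjusted limma test and, unadjusted, 8 lower (29.6%, against 9.45% of all tested genes) and 0 higher. Of the 27, 18 were negative and 9 positive. Timm8b, a chaperone of the intermembrane space, stood at 96.3 and 42.8 FPKM in the Krt6a+ libraries, against 322, 305 and 188 FPKM in the WAP+ libraries. Tomm5, a small subunit of the outer-membrane channel, stood at 17.2 and 77.6 FPKM in Krt6a+, against 210.2, 145 and 166 FPKM in WAP+. Hspe1, the matrix chaperonin partner, stood at 47.8 and 82.5 FPKM in Krt6a+, against 156, 184 and 226 FPKM in WAP+. These 3 had separate groups with Krt6a+ lower, as 11 import genes did in all (40.7%). The share was 17.4% of all tested genes and 22.4% of those of like length. Pmpca, Pmpcb and Timm17a, named after their values were seen, had both Krt6a+ libraries above all WAP+ libraries. That share (11.1%) was below the 17.4% of all tested genes and the 13.1% of those of like length.

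**Figure D5:**
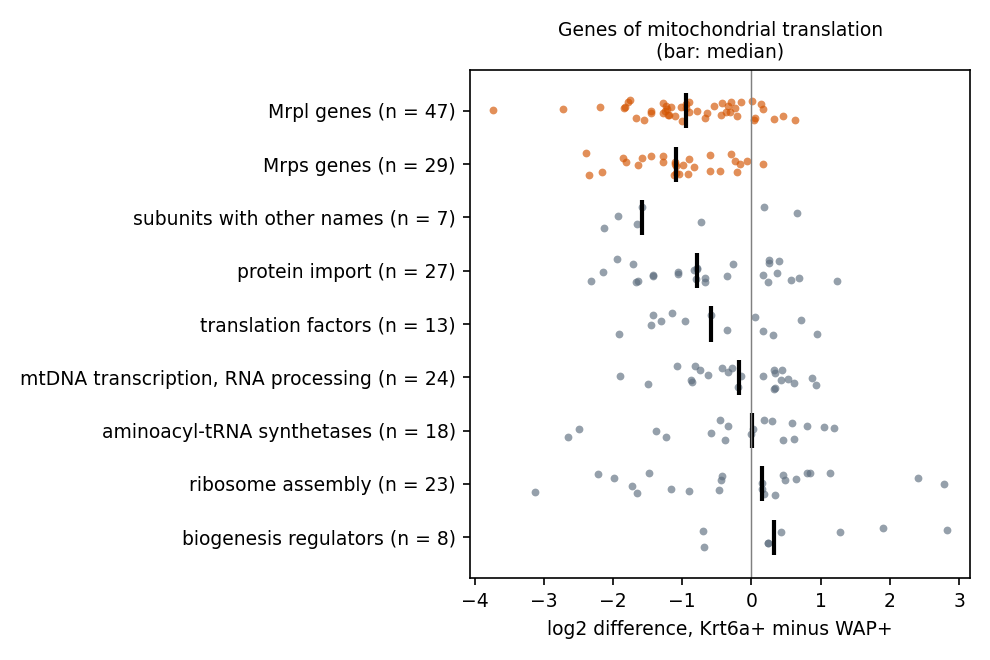
log2 difference (Krt6a+ minus WAP+) of each tested gene in the Mrp groups (orange) and in 7 partner lists (grey), with bars at the medians. Bars of the Mrpl and Mrps genes, at -0.94 and -1.09, lie left of all partner bars except the subunits with other names, at -1.58; with the length trend removed they are -0.29 and -0.33, and translation factors (-0.66) and protein import (-0.36) lie further left.

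The partner transcripts were longer, with median lengths of 1225 (protein import) to 2598 bases (translation factors), so the order of the lists changed once the length trend was removed. The median was then -0.85 for subunits with other names, which is the value of Oxa1l, the list's gene that is not a subunit. Medians were -0.66 for translation factors, -0.36 for protein import, -0.29 for Mrpl and -0.33 for Mrps genes. They were -0.16 for synthetases, -0.04 for assembly factors, 0.16 for transcription and RNA processing and 0.24 for biogenesis regulators.

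The gene families most like the Mrp genes also had negative medians. Nuclear subunits of oxidative phosphorylation had a median of -1.14 (75 tested), of which 1 passed the adjusted test as lower and 0 as higher. Cytosolic ribosomal proteins had a median of -1.62 (66 tested), of which 2 passed as lower and 0 as higher. Of all tested genes 0.434% passed as lower and 0.258% as higher. Both Krt6a+ libraries lay below all WAP+ libraries for 66.7% and 74.2% of the genes of these families. The share was 43.4% of Mrp genes and 17.4% of all tested genes. At an unadjusted limma p under 0.05, 53.3% and 71.2% were lower, against 32.9% of Mrp genes and 9.45% of all tested genes. The transcripts of both families were shorter still, with median lengths of 651 and 714 bases, against 1055 for Mrpl and 1052 for Mrps genes. With the length trend removed the medians were -0.04 for oxidative phosphorylation, -0.50 for cytosolic ribosomal proteins and -0.31 for Mrp genes. No difference between these families was tested.

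Markers of other cell types differed between libraries too. Of 5 adipocyte markers, Fabp4 alone was above 0, at 0 and 0 FPKM in Krt6a+ and 2188, 65.8 and 20.3 FPKM in WAP+, while Adipoq, Plin1, Cidec and Lep were listed at 0 throughout. Summed fibroblast markers (6 genes) stood at 57.5 and 210.1 FPKM in Krt6a+ and 17.1, 8.60 and 84.2 FPKM in WAP+. Most of that sum was Dcn, at 49.4 and 210.01 FPKM in Krt6a+ and 16.3, 8.60 and 67.0 FPKM in WAP+. Col1a1, Col1a2 and Col3a1 were listed at 0 in Krt6a+ library 3 and WAP+ library 2. They stood at 2.44, 4.12 and 1.51 FPKM in Krt6a+ library 2, and at 2.33, 6.66 and 6.00 FPKM in WAP+ library 3. In WAP+ library 1 they were at 0, 0.352 and 0 FPKM. The 5 endothelial markers summed to 0.0902 and 0.744 FPKM in Krt6a+ and 23.4, 0.0349 and 0.173 FPKM in WAP+. Of 7 immune markers, 4 were listed at 0 throughout (Ptprc, Cd3e, Lyz2 and Itgam), and the sum was 6.49 and 21.4 FPKM in Krt6a+ and 10.1, 26.4 and 19.5 FPKM in WAP+. The 10 cell-cycle genes, of which Ccnb1 and Bub1 were listed at 0 throughout, summed to 16.3 and 21.1 FPKM in Krt6a+ and 46.8, 31.0 and 23.4 FPKM in WAP+. The part of these cells and of proliferation in the Mrp values was not tested. Without WAP+ library 1, which had the highest Fabp4 and endothelial sums, the Mrp median was -1.02. Fabp4 was still at 65.8 and 20.3 FPKM in the other WAP+ libraries, so leaving out library 1 cannot measure that part.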

How the data were processed

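RNA was measured in 2 Krt6a+ and 3 WAP+ pools. Per the labels' protocols, amplified full-length cDNA (SMART-Seq v4, Nextera) was sequenced as paired 100-base reads. The submitters' processing notes name TopHat, Cufflinks and build mm10, without versions. Per the file headers, each of 34535 deposited transcript rows holds an FPKM with 95% bounds, a coverage signal and a transcript length. Coverage was not used.

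FPKM of rows sharing a symbol were summed and divided by median-ratio factors over 5334 genes (0.980 and 1.13 for Krt6a+; 1.14, 0.909 and 0.873 for WAP+). Genes at FPKM 1 or more in at least 2 libraries were tested on log2(scaled FPKM + 1) with limma 3.58.1 in R 4.3.3 (mean-variance trend, two-sided, Benjamini-Hochberg threshold 0.05), which had 3 residual and 4.87 prior degrees of freedom. A fold on this scale understates changes of low genes. An exact permutation of 2 against 3 libraries cannot go below p = 0.1, so none was run. Fragments were implied from interval widths; of values implying up to 200 fragments, 31.7% to 34.2% were within 0.02 of an integer, so the values were not treated as read counts. The fit was tested on simulated data. File loci were read as starting one base before the printed coordinate.

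The members and lists were chosen with earlier results of these data known. Named were the 8 largest positive and 8 largest negative statistics, the 5 highest levels, genes at 0 throughout a population, Mrpl12, Mrps12 and the Mrps18 genes, the 3 largest statistics per partner list, Krt6a and Wap. Of 17 alternatives, undoing the correction for effective length was chosen after seeing the data. The labels name no batch. One marker gene is not reported here.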

Additional observations from a re-analysis of the deposited data

How the results depend on the processing

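The main limits are 2 Krt6a+ libraries, a length trend and listed zeros. The median Mrp difference was negative under all 17 alternatives and moved beyond the library spread only when the length trend was removed, to -0.31; leaving out 1 library gave -1.11 to -0.83. For 55 Mrp genes the difference was negative whichever library was left out. Mrp genes called lower numbered 3 with FPKM 1 or more required in all 5 libraries (Mrpl21, Mrpl30, Mrpl52; fewer genes tested), 1 with the length trend removed (Mrpl9), and 0 to 3 with 1 library left out: 2 without Krt6a+ library 2 (Mrpl48, Mrps24) and 3 without Krt6a+ library 3 (Mrpl9, Mrps18b, Mrps6), where the lone Krt6a+ library is assumed to vary like the others. Mrps24, Mrps6 and Mrpl48 are named because they passed there. For Mrpl48 and Mrpl9 the lone Krt6a+ library in those fits was listed at 0, so these results depend on how the 0 is read. With listed zeros set to missing, their differences were -0.82 and -2.60. At an unadjusted limma p under 0.05, 12 Mrp genes were lower without the mean-variance trend. That was 15.8%, against 8.29% of all tested genes and 11.4% of those of like length. With the length trend removed there were 5 (6.58%, against 7.47% and 8.64%). Without WAP+ library 1, 2 or 3 there were 19, 18 and 25 (25.3%, 24% and 32.9%). The shares were then 9.13%, 8.43% and 9.64% of all tested genes, and 13.3%, 12.2% and 14.3% of those of like length.

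Over all genes, 25 were higher and 42 lower. Higher and lower counts were 6 and 20 with pseudocount 0.1, 7 and 1 with no filter, 80 and 99 with the stricter filter, 7 and 9 without the mean-variance trend, 77 and 71 with zeros missing, and 74 and 79 with effective length undone. Higher counts were 41 with pseudocount 5, 39 with quantile normalization and 96 with the length trend removed; the lower count was 27 without scaling. Leaving out 1 library gave 2 to 44 higher and 3 to 103 lower. The median of genes of like length was -0.32 with pseudocount 0.1, -0.17 with pseudocount 5, -0.17 without scaling, -0.18 with zeros missing, -0.011 with the length trend removed, -0.21 with effective length undone, -0.44 in the 25th to 75th percentile window, and -0.35 to -0.25 with 1 library left out. The cause of these changes was not tested.

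With the replicate number as a block, 15 genes were higher and 19 lower, 0 Mrp genes were called and the Mrp median was -1.03. Only 2 numbers are shared and same-numbered libraries correlated in their deviations at 0.050 and 0.00027, so the numbers are not taken to pair the samples.

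Of 774 single-gene values over 47 genes, 724 kept direction and side of the threshold, 12 passed only under the alternative, 16 no longer passed and 22 changed sign. With the length trend removed, the sign changed for Mrpl19 (-0.11), Mrpl35 (-0.084), Mrpl41 (-0.048), Mrpl33 (0.34), Mrps21 (0.66), Mrpl20 (0.25), Mrps18c (0.22) and Slirp (0.85). Mrps33 became -0.013 with pseudocount 5, and Mrpl41 became -0.026 with quantile normalization. With 1 library left out, Mrpl10 ran from -0.50 to 1.43, Mrpl2 ran from -1.04 to 1.71, Mrpl19 ran from -0.061 to 0.48, Mrpl35 ran from -0.19 to 0.27, Mrps33 ran from -0.65 to 0.92, Mrpl41 ran from -0.15 to 0.18 and Mrpl4 ran from -0.27 to 0.28. Krt6a and Wap lost their calls in 7 and 9 alternatives.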

Other observations

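The genome holds several Mrp genes close to other genes. By the GENCODE annotation of the same build, 30 of the 77 Mrp genes share exon bases with another gene, which an unstranded library cannot resolve, and 17 have a protein-coding gene starting on the other strand within 500 bases. Mrps12 and Sars2, whose starts lie 172 bases apart, were both lower in both Krt6a+ libraries than in all WAP+ libraries, with log2 differences of -1.11 and -2.65. Such separation held for 17.4% of all tested genes. Sars2 was tested only because of its WAP+ values, and with the length trend removed Mrps12 was at -0.0012. This pair is shown because both genes were named above, and shared regulation of such pairs was not tested. The head-to-head genes Mrps11 and Mrpl46, chosen after their values were seen, overlap in their exons. Mrps11 stood at 29.5 and 9.77 FPKM in Krt6a+ and 64.5, 33.6 and 13.01 FPKM in WAP+, and Mrpl46 at 28.5 and 22.1 FPKM in Krt6a+ and 77.9, 53.2 and 11.7 FPKM in WAP+, so their groups overlapped.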
